A study of Mus musculus with 12 samples.

Results

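Small RNA from the prefrontal cortex (PFC) of adult male C57BL/6 mice was sequenced in 12 libraries, and 8 mature miRNAs known from leukocytes, microglia and inflammation were followed through them: mmu-miR-142a-3p, mmu-miR-142a-5p, mmu-miR-223-3p, mmu-miR-150-5p, mmu-miR-155-5p, mmu-miR-146a-5p, mmu-miR-146b-5p and mmu-miR-21a-5p. They were chosen by name, as these 8 of the 1374 mature miRNAs listed in the files. All 8 were counted in every library and all 8 were among the 780 of 1422 mature and predicted miRNAs that held at least 5 counts in at least 3 libraries and were tested. The mice went through cocaine-conditioned place preference (CPP), a test of how much an animal seeks the place where it received a drug, and each of the 4 groups had 3 libraries. SS mice received saline alone, CS mice cocaine and saline, MS mice L-methionine (MET) and saline, and MC mice MET and cocaine. MET, an amino acid that donates methyl groups, was injected under the skin 2 times a day for 10 days, at 1 g/kg by the labels (a legend of the study gives a lower dose), and tissue was taken 2 h after the test on day 10. Each library was made from RNA pooled from 2 animals, so the values are those of pools of whole tissue and not of single mice or of sorted cells.

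A miRNA is a small RNA that guides the Argonaute protein to matching sites in mRNAs, mostly through its seed at bases 2 to 8, and lowers their translation and stability. miR-142 is made in nearly all blood-forming cells, miR-223 in neutrophils and other myeloid cells, and miR-150 in mature lymphocytes, and in brain tissue such miRNAs can come from microglia, from infiltrating cells and from blood left in the vessels. miR-155, miR-146a, miR-146b and miR-21 are switched on by inflammatory signals: miR-155 promotes the response, the miR-146 pair dampens NF-kB signaling by targeting adaptor proteins of the Toll-like receptors, and miR-21 is made in many cell types, astrocytes and microglia included, and restrains the protein Pdcd4.

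The mature sequences are shown because they say which members read the same targets and which could share reads. They were found in RefSeq (GRCm38.p6) for 7 of the 8 members and are written 5′ to 3′ with the seed in capitals.
mmu-miR-142a-5p: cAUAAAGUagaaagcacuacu
mmu-miR-142a-3p: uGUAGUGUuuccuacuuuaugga
mmu-miR-223-3p: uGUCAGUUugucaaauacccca
mmu-miR-155-5p: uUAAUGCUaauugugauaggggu
mmu-miR-146a-5p: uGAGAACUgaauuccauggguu
mmu-miR-146b-5p: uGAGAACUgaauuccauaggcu
mmu-miR-21a-5p: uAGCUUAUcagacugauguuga
The seed GAGAACU was shared by mmu-miR-146a-5p and mmu-miR-146b-5p, which differed at 2 positions counted from the 5′ end, G18A and U21C, so a read cut short before base 18 fits both. The other 5 seeds differed from each other and from these. mmu-miR-21c, with the seed of mmu-miR-21a-5p, was nearly absent, at 0 to 0.708 TPM. TPM is the authors' unit, the count of a miRNA per 1000000 counts of the library.

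The hairpins lie on 5 chromosomes of GRCm38 by the GENCODE M21 annotation. Mir142, which gives both arms of miR-142a, is on chromosome 11 at 87756864 to 87756927 on the plus strand, in an intron of its host transcript Mir142hg. Mir21a is on chromosome 11 at 86584067 to 86584158 on the minus strand, where the annotation has exon and UTR of Vmp1, a gene for a membrane protein of the endoplasmic reticulum. Mir146, the hairpin of miR-146a, is also on chromosome 11, at 43374397 to 43374461 on the minus strand, with no host gene annotated on its strand. The Mir142 and Mir21a hairpins are 1172705 bases apart. Mir146b is on chromosome 19 at 46342762 to 46342870 on the plus strand, in an intron of Mfsd13a, and thus on another chromosome than the hairpin with the same seed. Mir155 is on chromosome 16 at 84714140 to 84714204 on the plus strand in an exon of Mir155hg, Mir150 on chromosome 7 at 45121757 to 45121821 on the plus strand with no host gene annotated, and Mir223 on chromosome X at 96242817 to 96242926 on the plus strand in an exon of the noncoding gene F630028O10Rik.

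The libraries held 7.77 to 11.1 counts in units of 1000000, and a floor of 3 counts corresponded to 0.271 to 0.386 TPM. The labels name no batch. The files also have rows named for miRNA precursor families. RNA of 18 to 30 nt was sequenced, so these rows count short reads given to a family. They do not count whole hairpins, which are 64 to 110 bp for the members. Beyond that the rows are known here only from their names. How reads were divided between them and the mature rows is not given in the sources used here. The libraries were clustered by the profiles of 121 such families that hold none of the 8 members. The clustering was cut at a fixed number of 3 sets, which crossed the groups. Set A held SS 12, CS 8 and CS 9, set C held CS 10, MC 16 and MC 17, and set B held SS 13, SS 14, MC 20 and the 3 MS libraries (numbers are the labels' replicate numbers). No set held all 4 groups, so treatment and set cannot be fully told apart. Library MC 16 stood apart, with the fewest counts and a TMM factor (the scaling of a library against the others) of 0.675 against 0.826 to 1.26 in the other libraries, and was the lowest library of 6 of the 8 members.

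No member passed the threshold in a comparison of groups after adjustment for multiple testing. edgeR's quasi-likelihood test called 0 of the 8 members (threshold 0.05 on p-values adjusted by Benjamini-Hochberg) in MS vs SS, in CS vs SS, in MC vs CS, in the interaction of cocaine and methionine, and in the test of any difference among the 4 groups. In each of these the background was 0.0% of the 780 miRNAs tested. The smallest adjusted p of a member was 0.994 in CS vs SS, 0.515 in MS vs SS (mmu-miR-146a-5p), 0.577 in MC vs CS (mmu-miR-142a-5p and mmu-miR-223-3p among others) and 0.804 in the interaction (mmu-miR-223-3p). At an unadjusted p under 0.05 edgeR held 0 members in CS vs SS (2.82% of all tested), 0 in MS vs SS (9.62%), 2 in MC vs CS (7.44%), 0 in the interaction (4.36%) and 1 in the difference among the groups (7.56%). DESeq2, run as an alternative, called 0 of the 7 members to which it gave an adjusted p, and it gave none for mmu-miR-223-3p in any comparison, while it called 19 miRNAs in MS vs SS and 12 in the difference among groups. Most of the 8, the miR-146 pair excepted, differed widely between single libraries. In bulk tissue fewer cells of a type and less RNA per cell cannot be told apart, here or in any level given for a member.

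**Figure D1:**
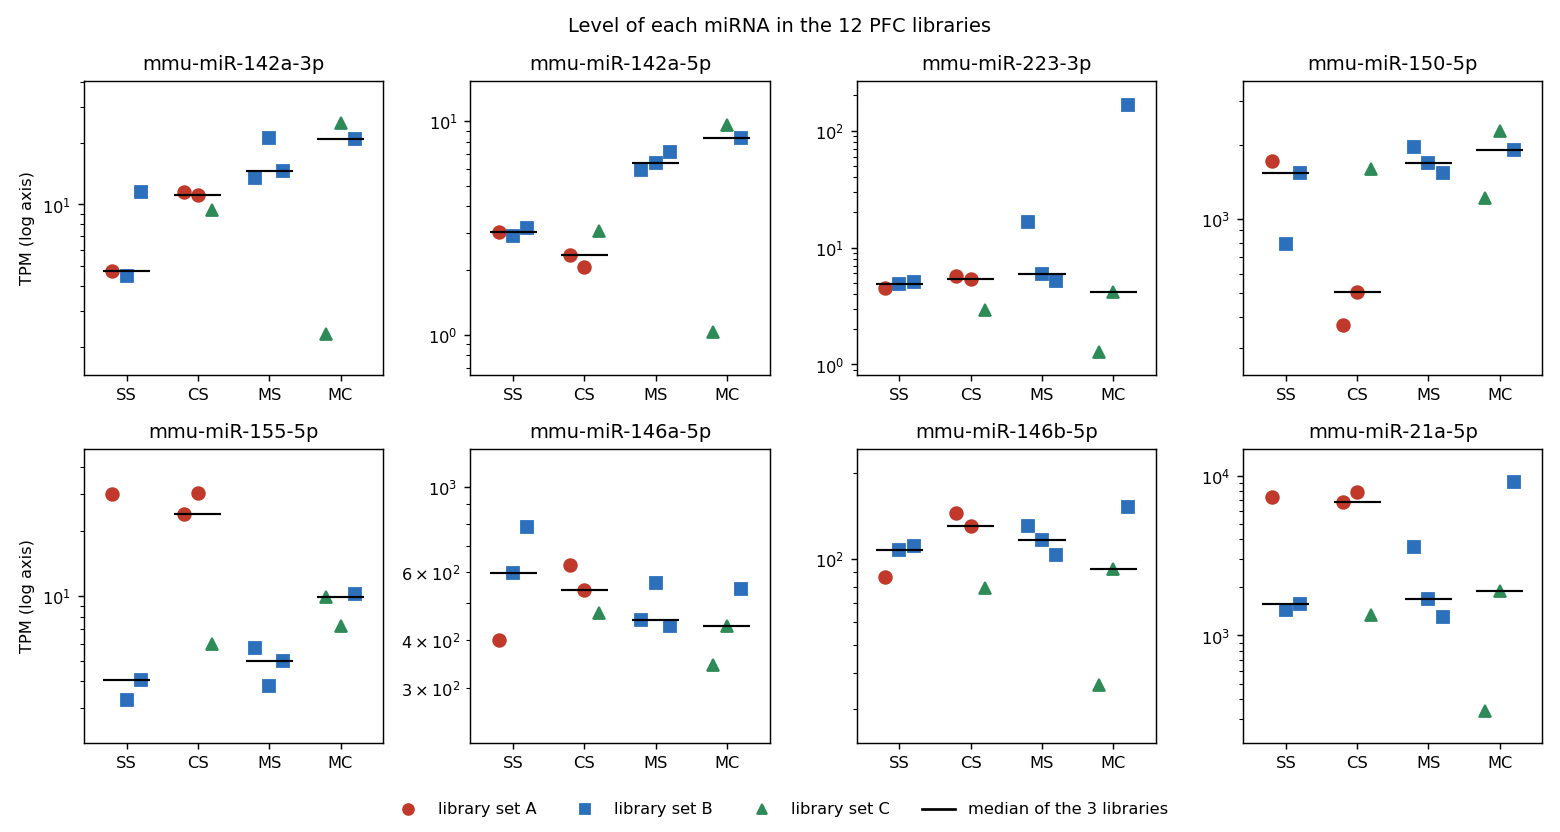
Level of each of the 8 miRNAs in TPM (log axis) in the 3 libraries of each treatment group; colour and shape give the library set and the bar the median of the 3 libraries. mmu-miR-142a-5p lay higher in all 3 MS libraries than in SS, as did 18.7% of all miRNAs tested. mmu-miR-223-3p reached 165.8 TPM in a single MC library, and mmu-miR-155-5p was highest in the 3 libraries of set A.

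The 2 arms of miR-142a, the pan-leukocyte miRNA, were scarce. Their MS libraries lay above their SS libraries in TPM, as did those of 18.7% of all miRNAs tested. Values are given by replicate number, as SS 12, 13 and 14, CS 8, 9 and 10, MS 3, 4 and 23, and MC 16, 17 and 20. mmu-miR-142a-3p was at 4.74, 4.48 and 11.6 TPM in SS, at 11.5, 11.1 and 9.41 TPM in CS, at 13.5, 21.2 and 14.5 TPM in MS, and at 2.32, 25.2 and 20.9 TPM in MC. All 3 MS libraries lay above all 3 SS libraries, by a narrow margin over SS 14, while MC held both the lowest and the highest value of the series. mmu-miR-142a-5p was at 3.04, 2.89 and 3.16 TPM in SS, at 2.36, 2.07 and 3.06 TPM in CS, at 5.93, 6.39 and 7.22 TPM in MS, and at 1.03, 9.66 and 8.34 TPM in MC. Here SS and CS stayed together near 3 TPM, MS stood clear of both, and MC 17 and MC 20 lay above MS while MC 16 lay below every other library.

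By group mean the 3p arm ordered SS, CS, MC and MS, at 6.93 ± 4.01, 10.7 ± 1.10, 16.1 ± 12.2 and 16.4 ± 4.17 TPM (SD, n = 3), and the 5p arm CS, SS, MC and MS, at 2.50 ± 0.509, 3.03 ± 0.135, 6.34 ± 4.65 and 6.51 ± 0.654 TPM, and every neighbouring pair of groups in these orders overlapped. The fitted differences with MET, on the log2 scale of TMM-scaled counts, were positive for both arms and did not pass the threshold. In MS vs SS mmu-miR-142a-3p was higher by 1.01 (SE 0.544, edgeR adjusted p = 0.598), about 2.01-fold, and mmu-miR-142a-5p by 0.87 (SE 0.484, adjusted p = 0.605), about 1.82-fold. In MC vs CS the difference was 0.53 (SE 0.540, adjusted p = 0.677) for the 3p arm and 1.27 (SE 0.494, unadjusted p = 0.0252, adjusted p = 0.577) for the 5p arm. Without MC 16 these were 1.01 and 1.72, with adjusted p-values of at least 0.0718 for the 5p arm over the libraries left out in turn. Cocaine alone gave 0.39 (SE 0.543) and -0.52 (SE 0.496), with intervals reaching from -0.80 to 1.58 and from -1.60 to 0.57, so the 2 arms of 1 hairpin pointed in opposite directions within their error. The arms were counted 18 to 228 times a library for 3p and 8 to 91 times for 5p, and their ratio ran from 1.55 in SS 13 to 5.39 in CS 9.

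mmu-miR-223-3p, the myeloid miRNA, was low and even in most libraries and very high in 1. It was at 4.50, 4.88 and 5.06 TPM in SS, at 5.66, 5.40 and 2.93 TPM in CS, at 16.4, 5.99 and 5.20 TPM in MS, and at 1.29, 4.14 and 165.8 TPM in MC. MC 20 held 1810 counts of it and every other library 10 to 180, a 129-fold span from the lowest to the highest library, and the second highest was MS 3. In TPM, without TMM scaling, MS lay above SS without overlap, as for 18.7% of all miRNAs tested. MS 23, at 5.20 TPM, was hardly above SS 14, at 5.06 TPM. MC vs CS gave a log2 difference of 3.52 (SE 1.27, unadjusted p = 0.0177, edgeR adjusted p = 0.577), about 11.4-fold, and its direction rested on MC 20: without that library the difference was -0.62. The same held for the interaction, at 2.81 (SE 1.68, adjusted p = 0.804) with MC 20 and -1.33 without it. In MS vs SS the difference was 0.71 (SE 1.17) and became -0.06 without MS 3. The MC mean was 57.1 ± 94.2 TPM (SD, n = 3) against 4.66 ± 1.51 in CS, 4.81 ± 0.286 in SS and 9.20 ± 6.26 in MS, an SD larger than the mean itself.

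High miR-223 in MC 20 was seen in its other rows too. The mir-223 precursor family, a row apart from the mature miRNA, held 42 counts in MC 20 and 0 to 6 in the others, and the 5p arm, near the floor throughout, had its highest level there, 0.64 TPM against 0 to 0.46 TPM elsewhere. By the Pearson correlation of log2(TMM-scaled CPM + 0.5) over 12 libraries, given as a description, the tested mature miRNAs most like it were mmu-miR-199a-5p (r = 0.965), mmu-miR-214-5p (r = 0.908) and mmu-miR-10a-5p (r = 0.850). All 3 peaked in MC 20: mmu-miR-199a-5p was at 67.3 TPM there and 2.96 to 14.1 TPM elsewhere, and mmu-miR-10a-5p was at 158.6 TPM there and 5.54 to 37.4 TPM elsewhere. mmu-miR-214-5p, which comes from the same transcript as a miR-199a hairpin, was at 3.76 TPM there and 0.365 to 1.18 TPM elsewhere. These correlations thus rest largely on 1 pool of 2 animals.

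**Figure D2:**
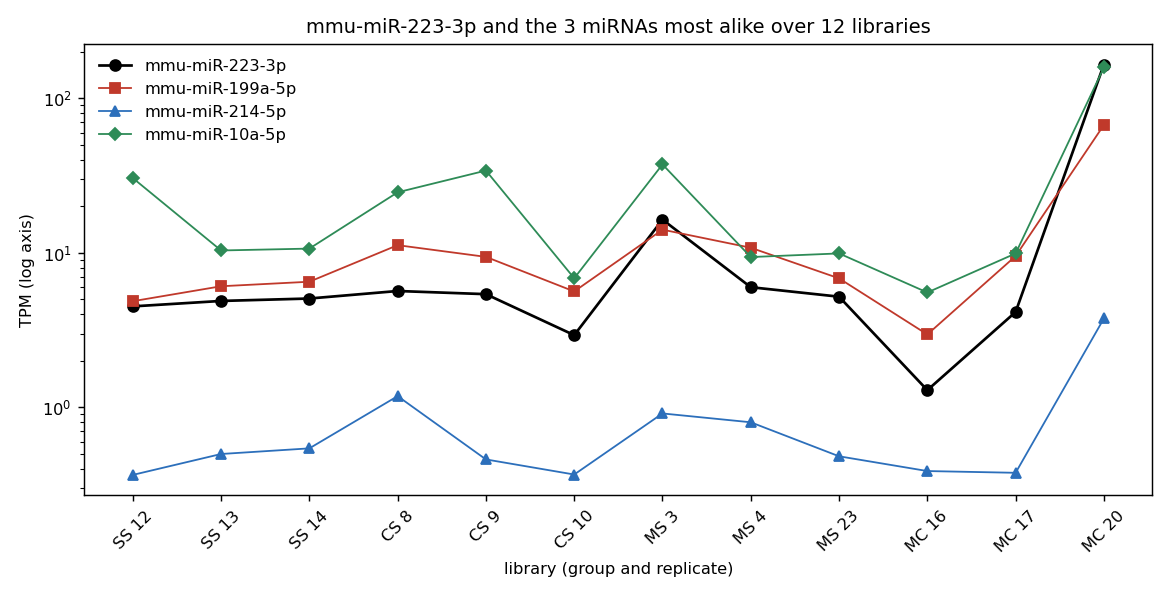
TPM (log axis) of mmu-miR-223-3p and of the 3 mature miRNAs with the most similar profile in each of the 12 libraries, named by group and replicate. All 4 lines peak in MC 20, where mmu-miR-223-3p was at 165.8 TPM and mmu-miR-10a-5p at 158.6 TPM, and 3 of the 4 have their second highest point in MS 3.

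mmu-miR-150-5p, known from mature lymphocytes, had a median of 1566 TPM over the libraries, against 11.5 TPM for mmu-miR-142a-3p. These 2 correlated at r = 0.110 over 12 libraries. Which cells of the tissue held mmu-miR-150-5p was not tested. The lowest values of mmu-miR-150-5p were those of CS 8 and CS 9. It was at 1721, 789.1 and 1541 TPM in SS, at 370.9, 506.8 and 1590 TPM in CS, at 1962, 1691 and 1530 TPM in MS, and at 1212, 2267 and 1896 TPM in MC. CS 10 lay among the SS libraries, so CS overlapped SS, and MC overlapped MS. The group means ordered CS, SS, MS and MC, at 823 ± 668, 1350 ± 494, 1728 ± 219 and 1792 ± 535 TPM (SD, n = 3), with overlap between all neighbours. On the log2 scale CS vs SS was -0.85 (SE 0.522, edgeR adjusted p = 0.994) and MC vs CS was 1.11 (SE 0.524, adjusted p = 0.577), about 2.16-fold. Both moved with CS 10: without it they were -1.96 and 2.20, with an adjusted p of at least 0.0923 for MC vs CS over the libraries left out in turn. SS 12, which was of set A like CS 8 and CS 9, was at 1721 TPM, so low mmu-miR-150-5p was not shared by all libraries of that set. MS vs SS was 0.14 (SE 0.518), with an interval from -1.0 to 1.27.

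mmu-miR-155-5p, made from the Mir155hg transcript when macrophages and lymphocytes are activated, had its 3 highest values in the 3 libraries of set A. It was at 29.9, 3.29 and 4.06 TPM in SS, at 24.2, 30.3 and 5.99 TPM in CS, at 5.74, 3.80 and 5.0 TPM in MS, and at 9.91, 7.27 and 10.2 TPM in MC. The 3 libraries of set A held 24.2 to 30.3 TPM and the other 9 held 3.29 to 10.2 TPM, with no overlap. Between groups the log2 difference was -1.56 (SE 0.806, edgeR adjusted p = 0.566) in MS vs SS, 0.41 (SE 0.781) in CS vs SS and -0.90 (SE 0.789) in MC vs CS. With library set in the fit these became 0.07, -0.19 and 0.99, and without SS 12 alone MS vs SS was 0.18. The group means ordered MS, MC, SS and CS, at 4.85 ± 0.979, 9.12 ± 1.6, 12.4 ± 15.1 and 20.2 ± 12.7 TPM (SD, n = 3).

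The precursor rows of miR-155 separated the libraries further. The mir-155 family held 488, 377 and 489 counts in SS 12, CS 8 and CS 9, 265 in MC 20, 59 in MS 3 and 1 to 7 in the other 7 libraries. Per 100 mature counts this was 184 to 239 in the first 4 of these libraries, 93.7 in MS 3, and 1.72 to 15.2 in the others, so that the precursor row held more reads than the mature row in 4 libraries only. mmu-miR-155-5p in MC 16 was as high as in MC 20, at 9.91 and 10.2 TPM, with 5 counts in the family row against 265.

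mmu-miR-21a-5p, the member with the highest median level, was high in the same 3 libraries and in MC 20. It was at 7358, 1449 and 1573 TPM in SS, at 6844, 7941 and 1339 TPM in CS, at 3599, 1687 and 1309 TPM in MS, and at 338.3, 1894 and 9181 TPM in MC. The 5 highest libraries were MC 20, CS 9, SS 12, CS 8 and MS 3, the last at 3599 TPM, and 6 others stayed between 1309 and 1894 TPM, with MC 16 far below. Every group held both a high and a low library, and the log2 differences of 0.33 (SE 0.950) in CS vs SS, -0.88 (SE 0.956) in MS vs SS and -0.54 (SE 0.952) in MC vs CS were all smaller than their standard errors. The group means ordered MS, SS, MC and CS, at 2198 ± 1227, 3460 ± 3376, 3805 ± 4721 and 5375 ± 3538 TPM (SD, n = 3), with overlap between all neighbours. Without SS 12, CS vs SS was 1.5 and MS vs SS was 0.31, and without MC 20, MC vs CS was -2.18. The mmu-miR-21a-3p arm, the product of the same hairpin that is usually degraded, ran from 0 to 3.02 TPM and had the profile most like the 5p arm (r = 0.966 over 12 libraries).

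The precursor family separated the high libraries of miR-21. The mir-21 family held 1155, 2095 and 1153 counts in SS 12, CS 8 and CS 9, and 7 to 122 counts elsewhere. MC 20, with the most mature mmu-miR-21a-5p, held 105, which is 0.105 per 100 mature counts against 1.67 to 3.61 in the libraries of set A. High mature miR-21 therefore came with many reads in the family row in set A and with few in MC 20. For miR-155, MC 20 had as many family-row reads per mature count as set A.

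**Figure D3:**
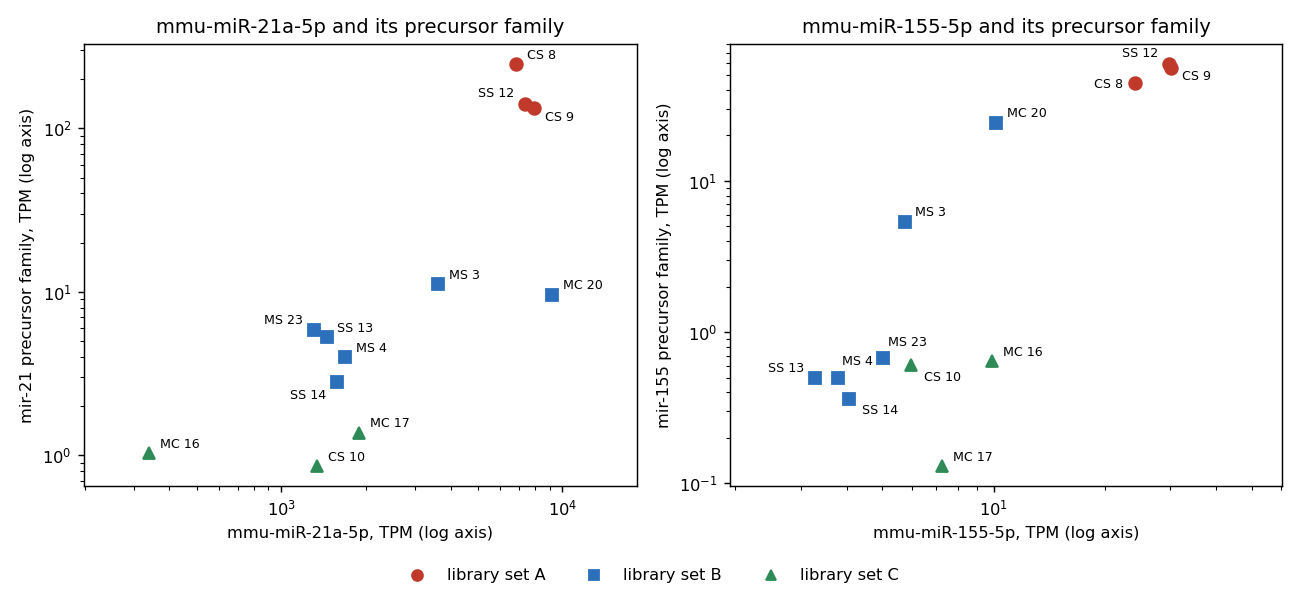
TPM of the mir-21 (left) and mir-155 (right) precursor family against TPM of the mature miRNA in 12 libraries, both axes logarithmic, with colour and shape for the library set. The 3 set A libraries lie at the upper right in both panels, and MC 20, at 9181 TPM of mmu-miR-21a-5p, has few reads in the mir-21 family row.

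The miR-146 pair, the brake on Toll-like receptor signaling, varied least. mmu-miR-146a-5p was at 400.3, 596.4 and 783.9 TPM in SS, at 627.7, 539.7 and 470.4 TPM in CS, at 451.8, 563.7 and 433.8 TPM in MS, and at 344.6, 433.9 and 541.5 TPM in MC. The groups overlapped throughout, and the highest and lowest library differed 2.27-fold. In MS vs SS the log2 difference was -0.54 (SE 0.248, unadjusted p = 0.0502, edgeR adjusted p = 0.515), about 0.686-fold, and in CS vs SS and MC vs CS it was -0.38 (SE 0.248) and -0.18 (SE 0.248). These intervals reached from -1.09 to 0.00044, from -0.93 to 0.16 and from -0.72 to 0.37, so that a change beyond 2-fold lay outside the intervals for cocaine alone and for MC vs CS. The group means fell in a narrow band, from 440.0 ± 98.6 TPM in MC over 483 ± 70.4 in MS and 546 ± 78.8 in CS to 594 ± 192 in SS (SD, n = 3).

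mmu-miR-146b-5p was at 86.8, 107.7 and 111.1 TPM in SS, at 145.3, 130.6 and 79.0 TPM in CS, at 130.7, 116.8 and 102.9 TPM in MS, and at 36.3, 92.6 and 151.5 TPM in MC. The MC libraries spanned the whole range and the other groups lay within it, with group means of 93.5 ± 57.6 TPM in MC, 102 ± 13.2 in SS, 117 ± 13.9 in MS and 118 ± 34.8 in CS (SD, n = 3). The log2 differences were -0.07 (SE 0.322) in CS vs SS, -0.05 (SE 0.321) in MS vs SS and -0.31 (SE 0.322) in MC vs CS, and with the library total in place of TMM factors the first and second were 0.22 and 0.20. Although the pair shares a seed, its members did not keep a fixed ratio: 146a was 3.46 times 146b in MS 3 and 9.49 times in MC 16. The mir-146 precursor family, with 290 to 958 counts a library, stayed at 8.47 to 15.6 per 100 mature counts of the pair, without the jumps seen for mir-21 and mir-155.

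**Figure D4:**
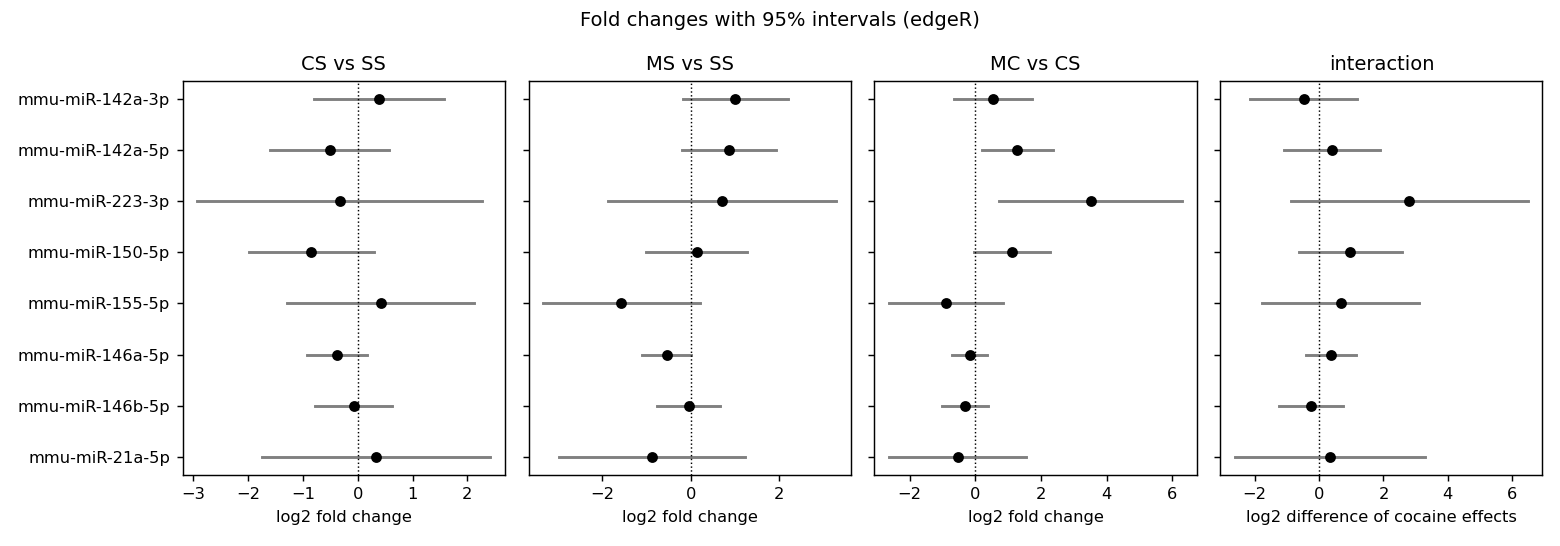
log2 fold change of each miRNA (points) with its 95% interval (lines) from edgeR in the comparisons of CS with SS, MS with SS and MC with CS, and the difference of the cocaine effect with and without MET (interaction). The intervals of mmu-miR-142a-5p and mmu-miR-223-3p in MC vs CS exclude 0 before adjustment, and all others include it.

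The ranges of the groups were also compared directly. In MS vs SS, 3 of the 8 members (mmu-miR-142a-3p, mmu-miR-142a-5p and mmu-miR-223-3p) had all MS libraries above all SS libraries in TPM, against 18.7% of all miRNAs tested, and 0 had them all below (4.1%). In CS vs SS the ranges of all 8 overlapped (12.3% of all tested were higher without overlap and 0.897% lower), and in MC vs CS likewise (2.95% and 2.05%). The 3 non-overlapping members were the 2 arms of 1 hairpin, miR-142a, and miR-223, and their share beside the background was not tested. These ranges were compared in TPM alone, which carries no TMM scaling. Leaving that scaling out moves the median log2 difference of all miRNAs in MS vs SS by 0.25, so the count of non-overlapping members depends on the scale. The interaction, which asks whether cocaine acted differently in MET-treated mice, was 0.98 (SE 0.735) for mmu-miR-150-5p, 0.67 (SE 1.11) for mmu-miR-155-5p, 0.41 (SE 0.685) and -0.48 (SE 0.762) for the 5p and 3p arms of miR-142a, 0.37 (SE 0.350) for mmu-miR-146a-5p, 0.33 (SE 1.34) for mmu-miR-21a-5p and -0.26 (SE 0.455) for mmu-miR-146b-5p on the log2 scale, with edgeR adjusted p-values of at least 0.810. The median log2 change of the members was -0.20 in CS vs SS, 0.04 in MS vs SS and 0.18 in MC vs CS, beside 0.03, -0.03 and 0.08 for all miRNAs tested.

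As a sum the members were 0.347% (MC 16) to 2.02% (MC 20) of all mature miRNA TPM, and mmu-miR-21a-5p alone made up 17.4% to 86.6% of that sum. Their spread over the 12 libraries was wide for most: the SD of log2(TMM-scaled CPM + 0.5) was 1.51 for mmu-miR-223-3p, 1.29 for mmu-miR-21a-5p and 1.09 for mmu-miR-155-5p, against a median of 0.480 over the 780 tested, and only mmu-miR-146a-5p (0.313) and mmu-miR-146b-5p (0.376) were below that median. By the share of this variance, mmu-miR-155-5p, mmu-miR-146b-5p and mmu-miR-21a-5p lay mostly between library sets (82.8%, 69.9% and 62.1%) and less between treatment groups (32.1%, 26.1% and 13.2%). The reverse held for mmu-miR-146a-5p, with 48.6% between groups and 12.3% between sets. mmu-miR-150-5p (51.6% and 46.5%) and mmu-miR-142a-5p (45.3% and 36.6%) were divided more evenly. The medians over all tested were 28.2% between groups and 22.2% between sets, and groups and sets overlap, so the shares do not add up.

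**Figure D5:**
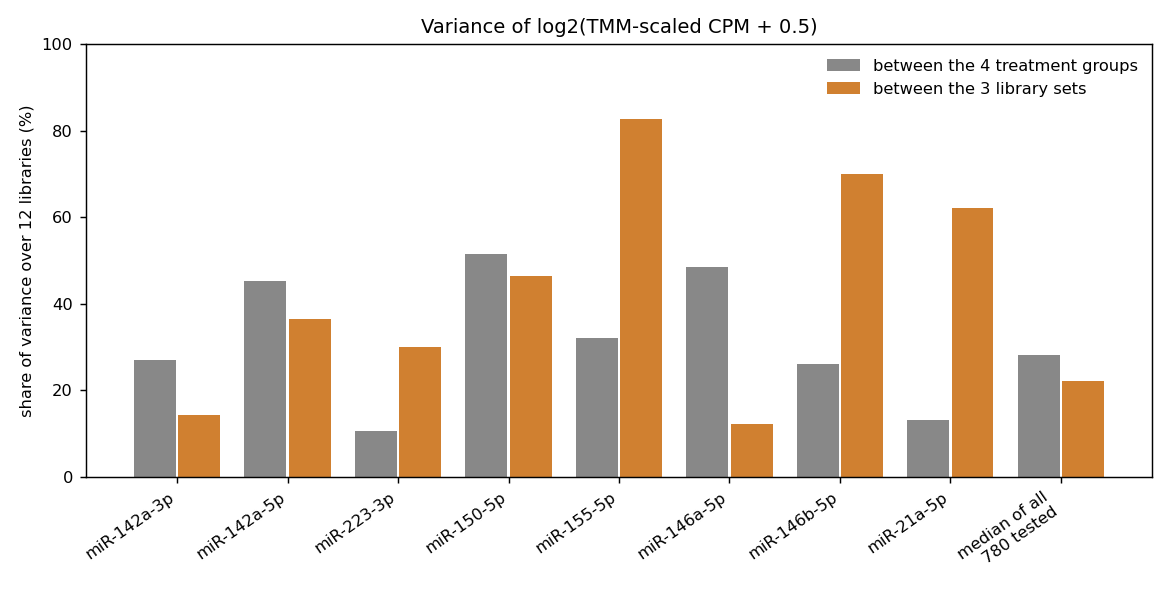
Share (%) of the variance of log2(TMM-scaled CPM + 0.5) over 12 libraries that lies between the 4 treatment groups (grey) and between the 3 library sets (orange) for each miRNA, with the median of the 780 miRNAs tested at the right. mmu-miR-155-5p stands out with 82.8% between sets, and mmu-miR-146a-5p has 48.6% between groups and 12.3% between sets.

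The members did not vary as 1 block. Over 12 libraries the highest correlation between members was that of the 2 miR-142a arms (r = 0.757), then mmu-miR-146b-5p with mmu-miR-21a-5p (r = 0.665), while the lowest was mmu-miR-142a-5p with mmu-miR-155-5p (r = -0.583). Outside the group, mmu-miR-335-3p was most like mmu-miR-142a-3p (r = 0.938), mmu-miR-140-5p most like mmu-miR-142a-5p (r = 0.878), mmu-miR-26b-3p most like mmu-miR-150-5p (r = 0.764), mmu-miR-767 most like mmu-miR-155-5p (r = 0.882), mmu-let-7i-5p most like mmu-miR-146a-5p (r = 0.843) and mmu-miR-744-3p most like mmu-miR-146b-5p (r = 0.936). These are descriptions over libraries that share sets and scaling, and carry no test.

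Other miRNAs listed for immune cells gave no change past the threshold either, and which cells of the tissue held them was not tested. Of 9 listed, 6 were tested, edgeR called 0 in each comparison, and only mmu-miR-342-3p in CS vs SS had an unadjusted p under 0.05 (log2 -0.45, SE 0.189, adjusted p = 0.994). The abundant mmu-miR-222-3p and mmu-miR-221-3p, which act on Kit in blood-forming cells, were at 1348 to 5354 and 371.8 to 962.9 TPM and both were highest in CS 8. mmu-miR-511-3p, encoded within the macrophage mannose receptor gene, was at 0.39 to 1.83 TPM, and mmu-miR-147-5p had no counts listed in any library. mmu-miR-142b, read from the opposite strand of the Mir142 hairpin, is contained in the reverse complement of mmu-miR-142a-3p and was at 0 to 1.30 TPM. Both mmu-miR-511-3p and mmu-miR-142b were thus near the floor, where a change is hard to see. Of the 6 opposite arms of the members' hairpins, mmu-miR-150-3p (0.97 to 4.51 TPM) and mmu-miR-21a-3p were tested, edgeR called 0 of these in each comparison, with 0 at an unadjusted p under 0.05, and mmu-miR-155-3p had no counts listed in any library.

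Because miR-142, miR-223 and miR-150 are also made by cells in blood, miRNAs of other cell types were read beside them. All 5 red blood cell miRNAs were detected, with mmu-miR-144-5p at 0 in some libraries, and their summed level was 1517 to 2232 TPM in SS, 2587 to 3992 in MS, 2400 to 2687 in CS and 464.6 to 3615 in MC. In TPM every MS library lay above every SS library, as for both arms of miR-142a, and MC 16 was lowest. Of all miRNAs tested, 18.7% lay higher in MS than in SS without overlap in TPM. TPM carries no TMM scaling, and leaving that scaling out moves the median log2 difference of all miRNAs in MS vs SS by 0.25. edgeR called 0 of the 5 in each comparison, with 1 at an unadjusted p under 0.05 in MS vs SS and 1 in MC vs CS. The sum was nearly all mmu-miR-451a, at 382.5 TPM in MC 16 and 1489 to 3947 TPM elsewhere. Its fitted MS vs SS difference was 0.46 (SE 0.483, edgeR adjusted p = 0.805). By row the 5 did not all go the same way: in MS vs SS 4 were higher by the fitted value and 1, mmu-miR-486a-5p, was lower. mmu-miR-144-3p, from the same transcript as mmu-miR-451a, was at 2.89 to 4.62 TPM in SS and 13.1 to 16.1 TPM in MS (log2 1.71, SE 0.579, unadjusted p = 0.0125, edgeR adjusted p = 0.336). mmu-miR-486a-5p was at 3.43 to 16.9 TPM in SS and 1.4 to 11.4 TPM in MS (log2 -1.31, SE 0.960, adjusted p = 0.722). mmu-miR-486b-5p, the other row named for miR-486, went the other way in MS vs SS (log2 1.11, SE 0.862, edgeR adjusted p = 0.747). It was at 11.2, 1.29 and 21.6 TPM in SS, where mmu-miR-486a-5p was at 11.3, 16.9 and 3.43 TPM, and at 19.9 to 37.5 TPM in MS. Reads of miR-486 could be counted in either row, and how they were divided was not tested. The direction of 1 row alone therefore cannot be taken as that of miR-486. mmu-miR-486b-5p was highest in MC 16, at 77.6 TPM, where the sum was lowest (MC vs CS log2 3.29, SE 0.933, unadjusted p = 0.00456, edgeR adjusted p = 0.577).

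Over 12 libraries the sum of these 5 correlated with mmu-miR-142a-5p at r = 0.660 (rho = 0.727, permutation p = 0.00798 and 0.00986, adjusted over 8 members 0.0638 and 0.0615) and with mmu-miR-142a-3p at r = 0.633 (rho = 0.580, permutation p = 0.0232 and 0.0515, adjusted 0.0928 and 0.137), both on the TMM-scaled log2 scale. Without MC 16 and SS 14, the libraries farthest from the median, r was 0.568 and 0.378, and within set B (6 libraries) 0.623 and 0.146. Without MC 16 alone, r for the 3p arm was 0.270. mmu-miR-146b-5p (r = 0.628, rho = 0.245, adjusted permutation p = 0.136 for r) and mmu-miR-21a-5p (r = 0.522, rho = 0.273, adjusted 0.143) had correlations of like size that fell to -0.0110 and -0.0915 without MC 16 and SS 14. mmu-miR-146a-5p went the other way (r = -0.375, rho = -0.692, permutation p = 0.0154 for rho, adjusted 0.0615), and mmu-miR-155-5p had r = -0.192. For mmu-miR-223-3p r was 0.399 and for mmu-miR-150-5p 0.0399 (permutation p = 0.137 and 0.896). With the library total and no TMM factors the miR-142a arms reached r = 0.750 and 0.780, each with a permutation p adjusted to 0.0105, and mmu-miR-146b-5p and mmu-miR-21a-5p r = 0.806 and 0.650, each adjusted to 0.0427. No relation passed the adjustment on the main scale, and the part of blood in the miR-142a levels was not tested beyond this.

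Markers of vessels, brain cells and other organs were read in the same way, and edgeR called none of them in any comparison, with at most 1 of a list at an unadjusted p under 0.05. The endothelial pair miR-126a, a marker of vessels, summed to 6580 to 7375 TPM in SS and 7669 to 9877 in MS, and to 2972 in MC 16. The SS and MS ranges did not overlap in TPM, where 18.7% of all miRNAs tested lay higher in MS in the same way. Most of the sum was mmu-miR-126a-3p, whose fitted MS vs SS difference was 0.09 (SE 0.204, edgeR adjusted p = 0.937). The other arm, mmu-miR-126a-5p, had an unadjusted p of 0.0188 in MS vs SS (log2 0.81, SE 0.295, edgeR adjusted p = 0.397). The 5 neuronal miRNAs, led by the abundant mmu-miR-9-5p and mmu-miR-124-3p and all detected in every library, summed to 78291 to 251788 TPM. All 5 had fitted values below 0 in MS vs SS and in MC vs CS, with a median log2 difference of -0.35 in both, beside -0.03 and 0.08 for all miRNAs tested. In CS vs SS 4 were below 0 and 1 above, with a median of -0.32 beside 0.03 for all miRNAs tested. mmu-miR-9-5p had the smallest p of these, in MS vs SS (log2 -0.64, SE 0.253, unadjusted p = 0.0278, edgeR adjusted p = 0.457). The 3 oligodendrocyte miRNAs were at 391.9 to 1733 TPM in sum, the 3 choroid plexus miRNAs at 683.7 to 2467 TPM, and the 3 muscle miRNAs at 27.0 to 87.4 TPM. mmu-miR-122-5p, the liver miRNA, was at 2494, 173.0 and 69.4 TPM in MS and at 11.2, 58.8 and 54.5 TPM in SS, with no overlap in TPM. Its MS vs SS log2 difference was 4.24 (SE 1.39, unadjusted p = 0.0105, edgeR adjusted p = 0.336), and MC vs CS gave 3.32 (SE 1.34, unadjusted p = 0.0299, adjusted p = 0.577). Its highest library, MS 3, was the second highest in mmu-miR-223-3p, but MC 16, at 140 TPM of mmu-miR-122-5p, was the lowest, at 1.29 TPM. MC 20, the highest in mmu-miR-223-3p at 165.8 TPM, was at 115.7 TPM of mmu-miR-122-5p. The part of all these markers in the members' levels was not tested.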

How the data were processed

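Small RNA of 18 to 30 nt from mouse PFC was read at 50 bp on the BGISEQ-500 platform (12 libraries, 3 biological replicates per group). The authors removed poor, adapter and short (under 16 nt) reads; by the methods AASRA then did the mapping, and reads matching miRNAs, rRNAs or tRNAs were taken out ahead of a Bowtie alignment to piRNAs. The submitters' notes name mm10. How reads were divided between mature and precursor rows is not given in the sources used here. The deposited count is the raw number of reads on a small RNA, and the deposited TPM, computed by the authors, is that count per 1000000 counts of the library (equal within 0.005).

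Groups came from the labels. Counts were tested with edgeR 4.0.16 (R 4.3.3; TMM factors from miRNAs, quasi-likelihood F-test, library total as library size, 12 libraries in 1 fit with a coefficient per group), with calls at 0.05 after Benjamini-Hochberg adjustment over 780 miRNAs. Fold changes use this scale and levels use TPM. The SE of a fold change was computed as the absolute log2 difference over the square root of its F value. Intervals use this SE and the t distribution with the degrees of freedom of the test. Correlations with the red blood cell sum used 100000 permutations, two-sided. Library sets came from clustering log2 precursor profiles (pseudocount 0.5), cut at a fixed number of 3 sets. Over 66 pairs, no library was found to be a copy of another. The edgeR fit was checked on simulated counts for CS vs SS alone, and the other steps were not. Alternatives were DESeq2 1.42.0, other scalings and filters, mature miRNAs alone, library set as covariate, the 6 libraries of a comparison, a limit of 1 on the log2 change, and each library left out; leaving out MC 16 and MC 20 together was chosen after seeing the data. Intervals of fold changes cover the spread between libraries, and floors counting error only. Members, marker lists and tests were chosen with earlier results of these data known. The named miRNAs are the members, their opposite arms, other immune and marker miRNAs, and the 3 most correlated with each member. Python 3.11.15 (pandas 2.3.3, numpy 2.4.6, scipy 1.17.1, matplotlib 3.10.9) did the rest.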

Additional observations from a re-analysis of the deposited data

How the results depend on the processing

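The 8 members stayed uncalled by edgeR under every alternative run, leaving out libraries included, and 7 by DESeq2, which gave no adjusted p for mmu-miR-223-3p in any comparison. Among their 32 fitted differences, 292 of the values under other settings kept direction and side of the threshold and 16 reversed, and 363 of those with a library left out did so and 21 reversed; the cause was not tested. With library set as covariate, mmu-miR-223-3p was 1.58 in CS vs SS and -0.036 in MS vs SS, mmu-miR-155-5p 0.072 in MS vs SS, -0.19 in CS vs SS and 0.99 in MC vs CS, mmu-miR-146b-5p 0.35 in CS vs SS and mmu-miR-21a-5p 0.56 in MC vs CS. Without TMM factors, which moves the median of all miRNAs by 0.27 in CS vs SS, 0.25 in MS vs SS and -0.33 in the interaction, mmu-miR-146b-5p was 0.22 and 0.20 in CS vs SS and MS vs SS and mmu-miR-146a-5p -0.014 in the interaction. mmu-miR-146b-5p in MS vs SS was also 0.071 with TMM factors from all features and 0.024 with at least 10 counts. Without MC 16 and MC 20 (chosen after seeing the data), mmu-miR-223-3p was -0.29 in MC vs CS and -0.99 in the interaction, where mmu-miR-142a-3p was 0.10 and mmu-miR-21a-5p -0.68.

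With each library left out in turn, CS vs SS ran from -0.15 to 2.14 for mmu-miR-155-5p, -0.21 to 0.052 for mmu-miR-146b-5p and -0.21 to 1.5 for mmu-miR-21a-5p. MS vs SS ran from -0.060 to 0.99 for mmu-miR-223-3p, -0.12 to 0.36 for mmu-miR-150-5p, -2.05 to 0.18 for mmu-miR-155-5p, -0.17 to 0.046 for mmu-miR-146b-5p and -1.48 to 0.31 for mmu-miR-21a-5p. MC vs CS ran from -0.62 to 4.11 for mmu-miR-223-3p, and the interaction from -1.33 to 3.58 for mmu-miR-223-3p, -1.07 to 1.23 for mmu-miR-155-5p and -1.30 to 0.94 for mmu-miR-21a-5p.

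Among all 780 miRNAs, the 0 calls of edgeR in MS vs SS became 19 with DESeq2, 3 in the fit of 6 libraries, 5 without MC 16 and MC 20, and 0 to 7 with 1 library left out (7 without MC 16); the difference among the 4 groups became 12, 1 and 0 to 3 (3 without MC 16) with DESeq2, without MC 16 and MC 20 and with 1 library left out.

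Correlations with red blood cell miRNAs were -0.0110 for mmu-miR-146b-5p and -0.0915 for mmu-miR-21a-5p without the 2 libraries farthest from the median, and 0.417 for mmu-miR-155-5p within set B. Without TMM factors they were 0.780 and 0.750 for the 3p and 5p arms of miR-142a, 0.806 for mmu-miR-146b-5p, 0.650 for mmu-miR-21a-5p and 0.228 for mmu-miR-146a-5p. With a library left out they ran from -0.0738 to 0.387 for mmu-miR-150-5p, -0.0855 to 0.757 for mmu-miR-146b-5p 0.533 to 0.753 for mmu-miR-142a-5p and 0.270 (without MC 16) to 0.719 for mmu-miR-142a-3p.

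No paired analysis was possible because the groups share no replicate numbers. With 3 pools per group, as few as 8 counts of a member in a library and SDs above 1 on the log2 scale for 3 members, intervals reached several-fold changes, so an uncalled member is not shown to be unchanged. The labels give no batch, the library sets were read from the data, and MC 16 held the lowest value of 6 members while MC 20 held the highest of 3.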
